A study of Mus musculus with 6 samples.

Results

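Of the 31115 genes in the deposited table, 8 are described here: the natriuretic peptide genes Nppa and Nppb, and Acta1, Ankrd1, Rcan1, Sprr1a, Fhl1 and Fhl2, which are used as transcript markers of stressed or enlarging heart muscle. They were chosen by name and not by a limit on their values, but with earlier results of these data known. RNA was sequenced from 6 libraries whose labels give mouse neonatal cardiomyocytes, heart muscle cells of newborn mice, at day 2. All were kept in normal culture, in DMEM with 10% fetal bovine serum and antibiotics. Of these, 3 libraries are labelled Ad-SPTBN1, with a genotype label of raised βII spectrin, the membrane skeleton protein encoded by Sptbn1, and 3 are labelled Ad-scramble. The labels do not describe either construct, do not give the mouse strain, and leave unsaid whether replicates are separate cultures. The p-values therefore measure the spread between libraries, which may be technical.

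Sptbn1 went against its label: it stood at 16.1, 16.5 and 15.7 FPKM (fragments scaled by gene length and by library total) in the libraries labelled Ad-SPTBN1, against 50.8, 48.3 and 50.1 FPKM in those labelled Ad-scramble. The log2 difference was -1.57 ± 0.03 (SE, n = 3 per group, limma adjusted p = 2.72e-06). Each direction given here compares libraries by these labels and does not stand for a gain of spectrin. The troponin T gene Tnnt2, a defining cardiomyocyte marker, averaged 13.85 ± 0.0743 FPKM in the libraries labelled Ad-SPTBN1 and 10.5 ± 0.319 FPKM in those labelled Ad-scramble (SD, n = 3 each). The collagen gene Col1a1, a fibroblast marker, averaged 2402 ± 103 FPKM in the libraries labelled Ad-SPTBN1 and 2078 ± 152 FPKM in those labelled Ad-scramble. Acta2, a smooth muscle marker, averaged 1604 ± 15.9 FPKM in the libraries labelled Ad-SPTBN1 and 1629 ± 11.6 FPKM in those labelled Ad-scramble. The 15 listed cardiomyocyte markers summed to 106 to 113 FPKM in the libraries labelled Ad-SPTBN1 and 63.85 to 66.14 FPKM in those labelled Ad-scramble. The 13 fibroblast markers summed to 4531 to 4755 FPKM in the libraries labelled Ad-SPTBN1 and 4302 to 4633 FPKM in those labelled Ad-scramble. By these sums and by Acta2, heart muscle markers were the lower ones in all libraries, despite the cardiomyocyte label. Which cells hold the RNA of the genes described here was not tested. Recovered reads in genes came to between 18775304 and 19638662 per library.

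When the heart wall is stretched or overloaded, its muscle cells switch on genes that are more active before birth. Nppa and Nppb, which encode the precursors of the hormones ANP and BNP, lead this programme, and skeletal actin Acta1 is another classical member. Ankrd1, Fhl1 and Fhl2 encode proteins of the sarcomere and nucleus that respond to mechanical load, Rcan1 reports on the calcium-activated phosphatase calcineurin, and Sprr1a follows cytokines that act through gp130.

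Nppa, Acta1, Ankrd1 and Sprr1a were higher in the libraries labelled Ad-SPTBN1, by 0.83, 0.25, 0.16 and 0.68 on the log2(FPKM + 1) scale. Nppb, Rcan1, Fhl1 and Fhl2 were not called. A call is a limma adjusted p under 0.05 over the 12608 genes that averaged at least 1 FPKM, a filter that all 8 genes passed. The count of 4 higher and 0 lower among 8 stands beside 5.54% of all tested genes called higher and 11.0% called in either direction. Because the 8 were chosen with earlier results of these data known, this comparison is a description and cannot test for an excess. At an unadjusted limma p under 0.05, 6 of the 8 were higher and 1 lower, beside 3394 of the 12608 tested genes in either direction. Voom on recovered reads called 5 of the 8 higher and 0 lower, beside 1087 higher and 1058 lower among all genes. The shares of 5.54% and 11.0% rest on 1391 called genes, of which 698 were higher and 693 lower. That total came to between 620 and 867 when any 1 of the 6 libraries was left out. The groups did not overlap for 7 of the 8 genes, 6 of them higher, against 32.3% of all tested genes. The median log2 difference was 0.205 over the 8 genes and 0.002 over all tested genes. In bulk RNA, more RNA of a gene per cell and more cells of a type cannot be told apart.

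The 250 bases before the RefSeq start are shown for the 4 called genes and for Nppb, the neighbour of Nppa, as the control regions whose letters can be set beside the values below (GRCm38.p6, each read 5′ to 3′ on the gene's strand). Capitals mark matches, on either strand, to short motifs. The TATA box was searched as TATAAA and the M-CAT core, which binds TEAD factors, as CATTCC. Proteins of the GATA family recognise GATAA, and AP-1 recognises TGANTCA. The NK2 homeodomain proteins recognise TNAAGTG, and the NFAT proteins have the core GGAAA. The CArG box, which binds SRF, was searched too. No matches overlap in the printed windows. The windows are chr4:148000472-148000721 on the plus strand for Nppa, chr4:147985650-147985899 on the plus strand for Nppb, chr8:123894776-123895025 on the minus strand for Acta1, chr19:36119845-36120094 on the minus strand for Ankrd1 and chr3:92485882-92486131 on the minus strand for Sprr1a.
Nppa: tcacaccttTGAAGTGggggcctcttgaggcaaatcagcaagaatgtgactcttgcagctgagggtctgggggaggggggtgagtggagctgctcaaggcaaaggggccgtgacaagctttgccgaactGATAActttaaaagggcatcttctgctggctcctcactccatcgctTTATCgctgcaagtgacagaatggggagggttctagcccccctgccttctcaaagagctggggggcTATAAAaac
Nppb: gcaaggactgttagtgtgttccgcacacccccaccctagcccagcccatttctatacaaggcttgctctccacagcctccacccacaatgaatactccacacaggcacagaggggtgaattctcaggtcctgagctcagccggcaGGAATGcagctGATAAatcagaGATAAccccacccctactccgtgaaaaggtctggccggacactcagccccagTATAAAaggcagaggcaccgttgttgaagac
Acta1: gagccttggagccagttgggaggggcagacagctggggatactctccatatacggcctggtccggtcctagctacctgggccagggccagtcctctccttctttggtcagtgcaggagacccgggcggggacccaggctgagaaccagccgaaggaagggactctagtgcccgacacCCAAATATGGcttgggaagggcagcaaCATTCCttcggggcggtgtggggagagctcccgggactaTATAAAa
Ankrd1: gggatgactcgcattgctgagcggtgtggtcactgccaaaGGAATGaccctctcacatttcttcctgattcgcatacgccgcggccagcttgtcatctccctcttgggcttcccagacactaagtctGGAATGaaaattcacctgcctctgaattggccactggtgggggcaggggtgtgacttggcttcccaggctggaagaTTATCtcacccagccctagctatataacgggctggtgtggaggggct
Sprr1a: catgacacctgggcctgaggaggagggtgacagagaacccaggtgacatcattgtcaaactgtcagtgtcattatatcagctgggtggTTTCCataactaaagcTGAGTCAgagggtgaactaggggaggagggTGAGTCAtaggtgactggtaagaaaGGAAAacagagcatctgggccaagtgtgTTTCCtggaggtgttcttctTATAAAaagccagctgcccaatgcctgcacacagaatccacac

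The Nppa window holds TATAAA 9 bases before the start, GATAA matches at 121 and 75 bases and an NK2 match at 241 bases. That of Nppb holds TATAAA at 31 bases, an M-CAT core at 105 bases and GATAA at 94 and 83 bases. The pair therefore share the TATA and GATA letters, and in these windows only Nppb has the M-CAT core and only Nppa the NK2 match. The RefSeq start used for Nppb lies downstream of the gene start of 147985788 given below. All named matches of the Nppb window therefore fall within the gene as annotated there. The Acta1 window holds a CArG box at 73 bases, an M-CAT core at 46 bases and TATAAA at 7 bases. The Ankrd1 window holds M-CAT cores at 210 and 123 bases and GATAA at 47 bases. The Sprr1a window differs from those 4 in holding AP-1 matches, at 146 and 116 bases, along with GGAAA at 162, 91 and 63 bases and TATAAA at 43 bases. Over the 11 annotated start windows of the 8 genes, TATAAA occurred in 6 genes, GATAA in 4, CATTCC in 3, the CArG box in 3, GGAAA in 3, TGANTCA in 2 and TNAAGTG in 1. Counted by window, the CArG box occurred in 4 of the 11, and each other motif in as many windows as genes. The shares that follow are by window. Of 32851 promoter windows of the same length in the RefSeq set, 12.4% held TATAAA, 22.6% GATAA, 12.6% CATTCC, 55.6% GGAAA, 1.47% a CArG box, 6.75% TGANTCA and 10.1% TNAAGTG. A match is a stretch of letters and does not show that a factor binds there.

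**Figure D1:**
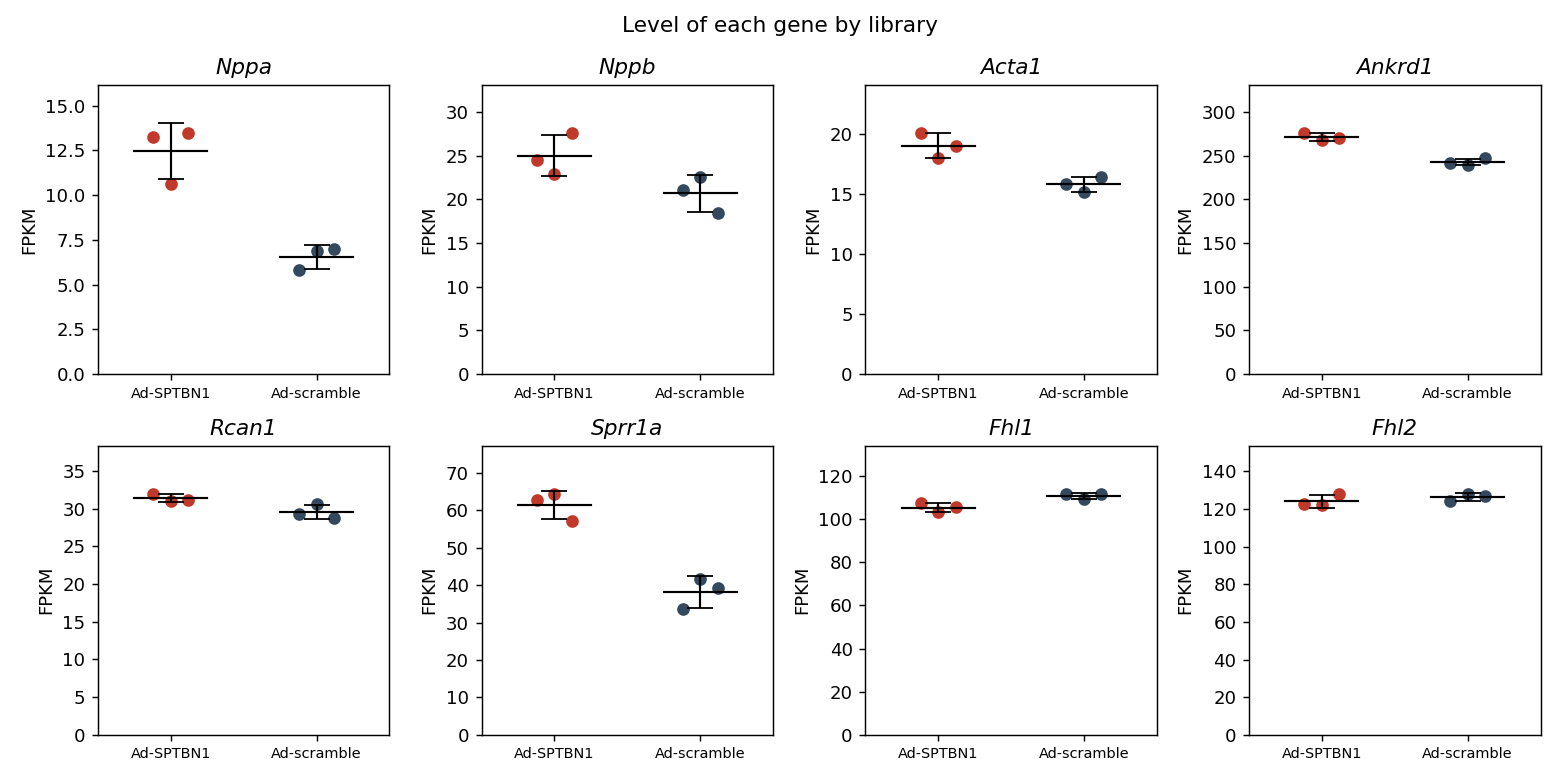
FPKM of each of the 8 genes, on linear axes that start at 0, in the 3 libraries labelled Ad-SPTBN1 (left, red) and the 3 labelled Ad-scramble (right, blue). Points are libraries and bars the mean ± SD; Nppa and Sprr1a show wide gaps between the groups, and Fhl2 is the only gene whose groups overlap.

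Nppa (ENSMUSG00000041616, GRCm38 chromosome 4, 148000722 to 148002079, plus strand) encodes the precursor of atrial natriuretic peptide, a hormone that lowers blood pressure. It stood at 13.2, 10.6 and 13.5 FPKM in the libraries labelled Ad-SPTBN1, against 5.80, 6.85 and 6.99 FPKM in those labelled Ad-scramble. Every library labelled Ad-SPTBN1 lay above every library labelled Ad-scramble, and replicate 2 was the lowest of its 3. It averaged 12.4 ± 1.57 FPKM in the libraries labelled Ad-SPTBN1 and 6.55 ± 0.651 FPKM in those labelled Ad-scramble (SD, n = 3 each), a mean level of 190% of that with the Ad-scramble label. The log2 difference was 0.83 ± 0.10 (SE, 95% interval 0.60 to 1.06, limma adjusted p = 0.00381). Only 10 of the genes called higher had a larger difference. Nppa was nevertheless the least abundant of the 8 genes and rested on few reads, with 218, 174 and 215 in the libraries labelled Ad-SPTBN1 and 95, 108 and 112 in those labelled Ad-scramble. The counting error alone of these reads is 6.77% to 10.3% over the 6 libraries, and the spread between libraries was 12.6% in the libraries labelled Ad-SPTBN1 and 9.95% in those labelled Ad-scramble.

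The value of Nppa is uncertain in another way. Of its exon bases, 61.5% lie opposite the antisense gene Gm13054, and the use of strand in counting is not given, so that reads of the pair cannot be told apart where they overlap. As the table assigns them, Gm13054 had 7, 16 and 7 reads in the libraries labelled Ad-SPTBN1 and 2, 1 and 10 in those labelled Ad-scramble.

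Nppb (ENSMUSG00000029019, chromosome 4, 147985788 to 147987205, plus strand) encodes the precursor of brain natriuretic peptide, which the ventricle releases under stretch. It stood at 24.5, 23.0 and 27.6 FPKM in the libraries labelled Ad-SPTBN1, against 21.1, 22.6 and 18.5 FPKM in those labelled Ad-scramble. The groups did not overlap, but the gap was small: replicate 2 of the libraries labelled Ad-SPTBN1 lay just above replicate 2 of those labelled Ad-scramble. Nppb stood at 121% of the level in the libraries labelled Ad-scramble, with a log2 difference of 0.26 ± 0.09 (95% interval 0.06 to 0.46), and was not called (limma adjusted p = 0.102). A test on recovered reads (voom, 267 to 398 reads per library) put it just past the threshold, with an adjusted p of 0.0471.

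Nppb was the more abundant natriuretic peptide gene in all 6 libraries, and the ratio of Nppa to Nppb differed between groups without overlap. It was 0.539, 0.463 and 0.488 in the libraries labelled Ad-SPTBN1, against 0.275, 0.303 and 0.379 in those labelled Ad-scramble. An exact two-sided permutation test gave p = 0.1, the smallest that 3 against 3 can give, or 0.13 adjusted over the 26 ratios computed. With 3 libraries a group this test cannot pass 0.05.

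The 2 genes lie 13517 bases apart. Of the 6 other tested genes within 100000 bases of either, 1 was called, 2510039O18Rik, which has no role given here. It averaged 33.3 ± 0.972 FPKM in the libraries labelled Ad-SPTBN1 and 29.4 ± 1.07 FPKM in those labelled Ad-scramble (log2 difference 0.17, limma adjusted p = 0.0287). That call was lost without any 1 library other than Ad-scramble replicate 2 (adjusted p = 0.0504 to 0.0947). Clcn6, a chloride transporter gene 2180 bases from Nppa, averaged 7.70 ± 0.120 FPKM in the libraries labelled Ad-SPTBN1 and 7.615 ± 0.738 FPKM in those labelled Ad-scramble, and was not called (limma adjusted p = 0.901).

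Around the 2 hormones, most tested genes of the natriuretic peptide system were not called, but 2 receptor genes and 1 protease gene were. Of 15 listed genes of the natriuretic peptide system other than Nppa and Nppb, 12 were tested, 1 was higher and 2 lower, beside 5.54% higher and 5.50% lower of all tested genes. Voom called 1 higher and 5 lower. The median log2 difference was -0.05. Ide, a protease that degrades insulin and natriuretic peptides, was higher, at 9.32 ± 0.229 FPKM in the libraries labelled Ad-SPTBN1 and 7.57 ± 0.300 FPKM in those labelled Ad-scramble (log2 difference 0.27, limma adjusted p = 0.0104). Npr3, the clearance receptor that removes the peptides, was lower, at 7.33 ± 0.272 FPKM in the libraries labelled Ad-SPTBN1 and 9.005 ± 0.142 FPKM in those labelled Ad-scramble (log2 difference -0.27, limma adjusted p = 0.00928). Npr2, the receptor for C-type natriuretic peptide, was lower, at 6.51 ± 0.258 FPKM in the libraries labelled Ad-SPTBN1 and 8.26 ± 0.539 FPKM in those labelled Ad-scramble (log2 difference -0.30, limma adjusted p = 0.0168). The Npr2 call was lost without replicate 1 or 2 of either group (adjusted p = 0.0536 to 0.0606).

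Npr1, the guanylyl cyclase receptor through which ANP and BNP act, was low in the libraries of both labels and not called, at 2.80 ± 0.207 FPKM in the libraries labelled Ad-SPTBN1 and 2.47 ± 0.129 FPKM in those labelled Ad-scramble (limma adjusted p = 0.256). Nppc, the third natriuretic peptide gene, averaged 5.30 ± 0.405 FPKM in the libraries labelled Ad-SPTBN1 and 5.085 ± 0.935 FPKM in those labelled Ad-scramble. Its log2 difference of 0.06 was not called (limma adjusted p = 0.777), and its 95% interval ran from -0.19 to 0.31. Of the 3 peptide genes, then, Nppa alone was called in the fit on FPKM.

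Acta1 (ENSMUSG00000031972, chromosome 8, 123891769 to 123894751, minus strand) encodes the skeletal muscle form of sarcomeric actin, which heart muscle uses before birth and again under load. It stood at 20.0, 18.0 and 19.0 FPKM in the libraries labelled Ad-SPTBN1, against 15.8, 15.1 and 16.4 FPKM in those labelled Ad-scramble. The groups did not overlap, and the log2 difference was 0.25 ± 0.05 (SE, 95% interval 0.14 to 0.365, limma adjusted p = 0.0202). The difference was common in size, since 323 of the genes called higher had a larger one. The call was lost without Ad-SPTBN1 replicate 1 or 3 or Ad-scramble replicate 1 or 2 (adjusted p = 0.0575 to 0.0636) and with no filter on low genes (adjusted p = 0.0606).

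Among the other actins, cardiac actin Actc1 showed the largest difference. It stood at 44.8, 48.9 and 45.1 FPKM in the libraries labelled Ad-SPTBN1, against 21.6, 21.5 and 20.9 FPKM in those labelled Ad-scramble (log2 difference 1.08 ± 0.04, limma adjusted p = 4.39e-05). The smooth muscle actins Acta2 and Actg2 and the cytoplasmic actins Actb and Actg1 were not called (limma adjusted p = 0.243 to 0.974). Actb averaged 1210 ± 56.3 FPKM in the libraries labelled Ad-SPTBN1 and 1206 ± 33.1 FPKM in those labelled Ad-scramble, and Actg2 averaged 131 ± 4.40 FPKM in the libraries labelled Ad-SPTBN1 and 127 ± 4.41 FPKM in those labelled Ad-scramble. Of the 50-base words of Acta1, 2.02% also occur in other genes, the cytoplasmic actins among them. Of the 2 sarcomeric actins, the cardiac form was thus the more abundant, and its excess over Acta1 was larger in the libraries labelled Ad-SPTBN1. The ratio of Acta1 to Actc1 was 0.448, 0.368 and 0.421 in them, against 0.735, 0.703 and 0.785 in the libraries labelled Ad-scramble (exact two-sided permutation p = 0.1, the smallest possible).

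Ankrd1 (ENSMUSG00000024803, chromosome 19, 36111965 to 36119844, minus strand) encodes CARP, an ankyrin repeat protein that binds titin in the sarcomere and also enters the nucleus. It was the most abundant of the 8 genes, above 98.9% of all tested genes by mean FPKM. It stood at 276.02, 268 and 270.4 FPKM in the libraries labelled Ad-SPTBN1, against 242, 240.0 and 247 FPKM in those labelled Ad-scramble. The spread between libraries was 1.57% in the libraries labelled Ad-SPTBN1 and 1.56% in those labelled Ad-scramble, and the groups stood well apart for a difference of that size. It averaged 271 ± 4.27 FPKM in the libraries labelled Ad-SPTBN1 and 243 ± 3.79 FPKM in those labelled Ad-scramble (SD, n = 3 each). Its log2 difference was 0.16 ± 0.025 (SE, 95% interval 0.10 to 0.22, limma adjusted p = 0.00971), and it was called under every alternative tried (adjusted p = 0.000131 to 0.0459). With 12622 to 15185 reads per library it was the most deeply counted of the 8.

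Fhl1 and Fhl2 encode proteins built of LIM domains that sit at the sarcomere, where they bind titin and signalling enzymes. Fhl1 (ENSMUSG00000023092, chromosome X, 56731787 to 56793346, plus strand) lay at 108, 103 and 105 FPKM in the libraries labelled Ad-SPTBN1, against 112, 109 and 112 FPKM in those labelled Ad-scramble. The groups did not overlap and the libraries labelled Ad-SPTBN1 were the lower ones, with a log2 difference of -0.07 ± 0.03 (95% interval -0.13 to -0.01) that was not called (limma adjusted p = 0.126). Fhl2 (ENSMUSG00000008136, chromosome 1, 43123074 to 43196984, minus strand) lay at 122, 122 and 128 FPKM in the libraries labelled Ad-SPTBN1, against 124, 128 and 127 FPKM in those labelled Ad-scramble. Its groups overlapped, and its log2 difference of -0.03 ± 0.03 was not called (95% interval -0.095 to 0.04, limma adjusted p = 0.603). Neither interval reaches the difference of Ankrd1. Fhl3, their close relative, averaged 32.6 ± 1.61 FPKM in the libraries labelled Ad-SPTBN1 and 29.7 ± 1.25 FPKM in those labelled Ad-scramble and was not called either (limma adjusted p = 0.133).

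Of 17 other listed genes of muscle ankyrin repeat and LIM proteins, 12 were tested, 0 were higher and 3 lower, with a median log2 difference of -0.08. Over all tested genes, 5.54% were higher and 5.50% lower. At an unadjusted limma p under 0.05, 2 were higher and 4 lower, and voom called 1 higher and 4 lower. Lmcd1, a LIM protein that restrains a GATA factor, averaged 77.8 ± 2.94 FPKM in the libraries labelled Ad-SPTBN1 and 98.05 ± 3.76 FPKM in those labelled Ad-scramble (log2 difference -0.33, limma adjusted p = 0.00401). Pdlim3, an actinin-binding LIM protein, averaged 20.7 ± 0.736 FPKM in the libraries labelled Ad-SPTBN1 and 25.5 ± 0.281 FPKM in those labelled Ad-scramble (log2 difference -0.29, limma adjusted p = 0.00401). The third, Csrp1, a LIM protein abundant in smooth muscle, differed by -0.10 (limma adjusted p = 0.043), a call lost without any 1 library (adjusted p = 0.0723 to 0.121). Ankrd1 thus went the other way from the called genes of this list, but not from all of its genes. Csrp3 was higher without overlap, at 1.66 ± 0.357 FPKM in the libraries labelled Ad-SPTBN1 and 0.982 ± 0.0752 FPKM in those labelled Ad-scramble. Its log2 difference of 0.415 was not called (limma adjusted p = 0.0551). The listed ankyrin repeat genes Ankrd2 and Ankrd23, close relatives of Ankrd1, averaged 0.433 and 0.151 FPKM in the libraries labelled Ad-SPTBN1 and 0.262 and 0.133 FPKM in those labelled Ad-scramble, too low for the test.

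Rcan1 (ENSMUSG00000022951, chromosome 16, 92391953 to 92466146, minus strand) encodes an inhibitor of calcineurin whose short form is itself switched on by calcineurin through NFAT. It stood at 32.0, 31.0 and 31.1 FPKM in the libraries labelled Ad-SPTBN1, against 29.3, 30.6 and 28.8 FPKM in those labelled Ad-scramble. The groups did not overlap, by a margin smaller than the spread within either, and the log2 difference of 0.08 ± 0.03 was not called (95% interval 0.01 to 0.16, limma adjusted p = 0.156). The table gives 1 value for the gene, so that its annotated starts are not told apart. Of 17 other listed genes of calcineurin and NFAT signalling, 16 were tested, 0 were higher and 1 lower, with a median log2 difference of -0.02. These counts stand beside 5.54% higher and 5.50% lower of all tested genes. At an unadjusted limma p under 0.05, 1 was higher and 2 lower, and voom called 1 in each direction. The lower gene was Rcan2, a second calcineurin inhibitor, at 2.52 ± 0.131 FPKM in the libraries labelled Ad-SPTBN1 and 3.38 ± 0.0742 FPKM in those labelled Ad-scramble (log2 difference -0.32, limma adjusted p = 0.0139). Leaving out Ad-scramble replicate 1 ended that call (adjusted p = 0.0525).

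Sprr1a (ENSMUSG00000050359, chromosome 3, 92483952 to 92485895, minus strand) encodes a small proline-rich protein of the cornified skin envelope that heart muscle also makes under overload or gp130 cytokines. It stood at 62.7, 64.4 and 57.2 FPKM in the libraries labelled Ad-SPTBN1, against 33.5, 41.7 and 39.2 FPKM in those labelled Ad-scramble. A wide gap separated the groups, and the lowest library labelled Ad-SPTBN1 was replicate 3. It averaged 61.4 ± 3.76 FPKM in the libraries labelled Ad-SPTBN1 and 38.1 ± 4.16 FPKM in those labelled Ad-scramble (SD, n = 3 each), a mean level of 161% of that with the Ad-scramble label. The log2 difference was 0.68 ± 0.08 (SE, 95% interval 0.49 to 0.87, limma adjusted p = 0.00387), and 20 of the genes called higher had a larger one. Unlike Nppa, it rested on 512 reads or more in each library, and it shares no 50-base word with another gene.

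No tested gene of the rest of its family was called. Of 13 other Sprr genes, 4 were tested and limma and voom each called 0, with 1 higher at an unadjusted limma p under 0.05. That gene, Sprr2g, averaged 2.09 ± 0.219 FPKM in the libraries labelled Ad-SPTBN1 and 1.15 ± 0.474 FPKM in those labelled Ad-scramble. Its groups did not overlap (log2 difference 0.545, limma adjusted p = 0.0706). The most abundant, Sprr2k, a neighbour of Sprr1a, averaged 8.78 ± 1.93 FPKM in the libraries labelled Ad-SPTBN1 and 7.19 ± 1.45 FPKM in those labelled Ad-scramble (limma adjusted p = 0.374). The 29 listed genes of the Sprr family and of gp130 signalling included 18 tested ones, of which 4 were higher and 1 lower, or 5 of 18 beside the 11.0% called among all tested genes, with a median log2 difference of 0.07. At an unadjusted limma p under 0.05, 5 were higher and 3 lower, and voom called 4 higher and 3 lower. The 5 calls became 2 without Ad-SPTBN1 replicate 1 and 3 without Ad-SPTBN1 replicate 2 or Ad-scramble replicate 1. Il11, a cytokine that acts through gp130, averaged 12.4 ± 0.630 FPKM in the libraries labelled Ad-SPTBN1 and 7.325 ± 0.584 FPKM in those labelled Ad-scramble (log2 difference 0.69, limma adjusted p = 0.00141). Osmr, the oncostatin M receptor, averaged 17.35 ± 0.222 FPKM in the libraries labelled Ad-SPTBN1 and 14.2 ± 0.282 FPKM in those labelled Ad-scramble (log2 difference 0.27, limma adjusted p = 0.00394). Il6, another gp130 cytokine, averaged 8.18 ± 0.290 FPKM in the libraries labelled Ad-SPTBN1 and 5.63 ± 0.809 FPKM in those labelled Ad-scramble (log2 difference 0.48, limma adjusted p = 0.0146), a call lost without replicate 1 of either group (adjusted p = 0.0517 to 0.0545). Il6st, which encodes gp130 itself, went the other way, at 50.6 ± 0.685 FPKM in the libraries labelled Ad-SPTBN1 and 55.85 ± 1.09 FPKM in those labelled Ad-scramble (log2 difference -0.14, limma adjusted p = 0.0219). That call was lost without any 1 library other than Ad-scramble replicate 2 (adjusted p = 0.0527 to 0.078).

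**Figure D2:**
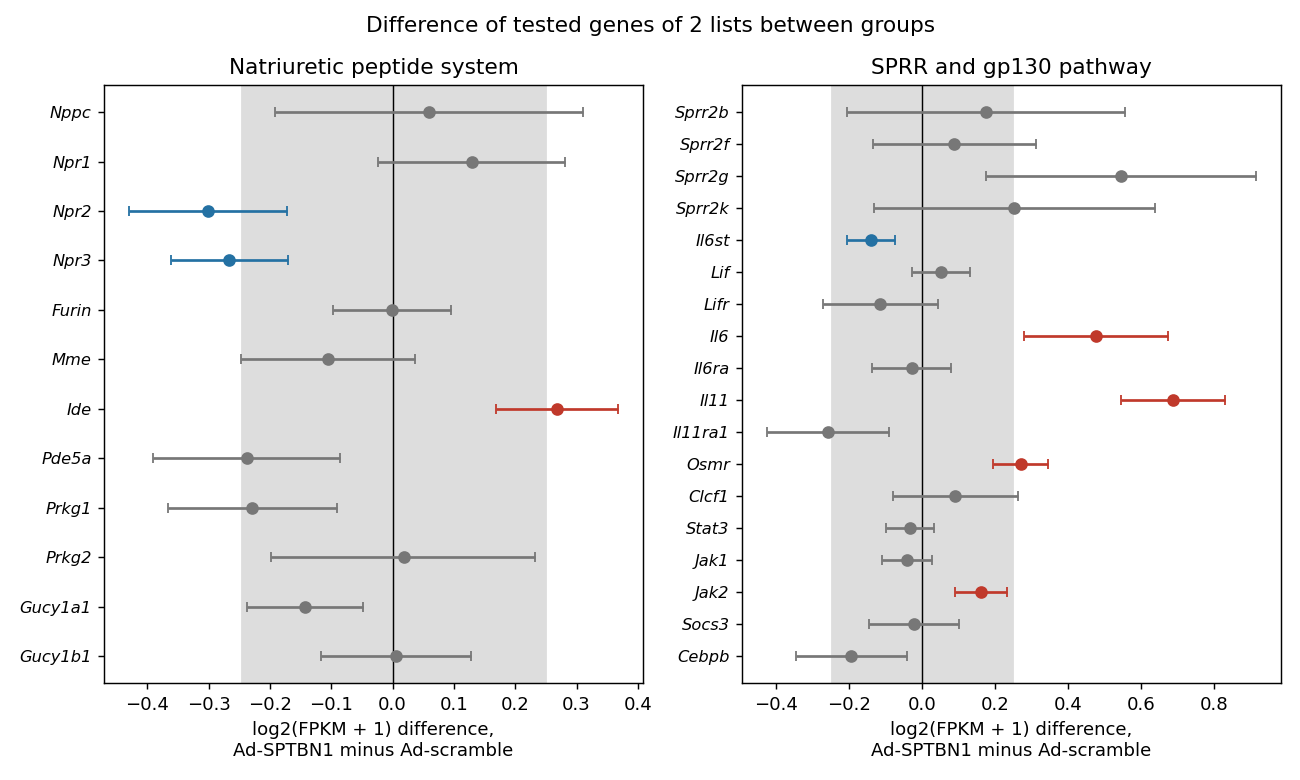
Log2(FPKM + 1) difference with its 95% limma interval, Ad-SPTBN1 minus Ad-scramble, for the 12 tested genes of the natriuretic peptide list (left) and the 18 tested genes of the Sprr and gp130 list (right). Red marks genes called higher, blue genes called lower and grey genes not called; the grey band runs from -0.25 to 0.25, the 5th to 95th percentiles of all tested genes. Il11 lies farthest to the right, at 0.69.

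Il11 was also the tested gene whose pattern over the 6 libraries lay nearest to that of Sprr1a, with a root mean square difference of 0.061 between their centred log2(FPKM + 1) values. Next came Rps19-ps7, at 0.082, a pseudogene whose reads may belong to its parent, and Adam19, a membrane protease, at 0.091. Adam19 averaged 11.3 ± 0.697 FPKM in the libraries labelled Ad-SPTBN1 and 6.90 ± 0.443 FPKM in those labelled Ad-scramble. Nearest to Nppa were Tmem18 at 0.099, Mapkapk3 at 0.113 and Cxcl5 at 0.142. Mapkapk3, a kinase downstream of p38, averaged 3.955 ± 0.357 FPKM in the libraries labelled Ad-SPTBN1 and 2.04 ± 0.125 FPKM in those labelled Ad-scramble. The chemokine gene Cxcl5 averaged 55.7 ± 2.88 FPKM in the libraries labelled Ad-SPTBN1 and 36.0 ± 1.66 FPKM in those labelled Ad-scramble. With 6 libraries in 2 groups this likeness is mostly the shared difference between groups, and is given as a description.

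**Figure D3:**
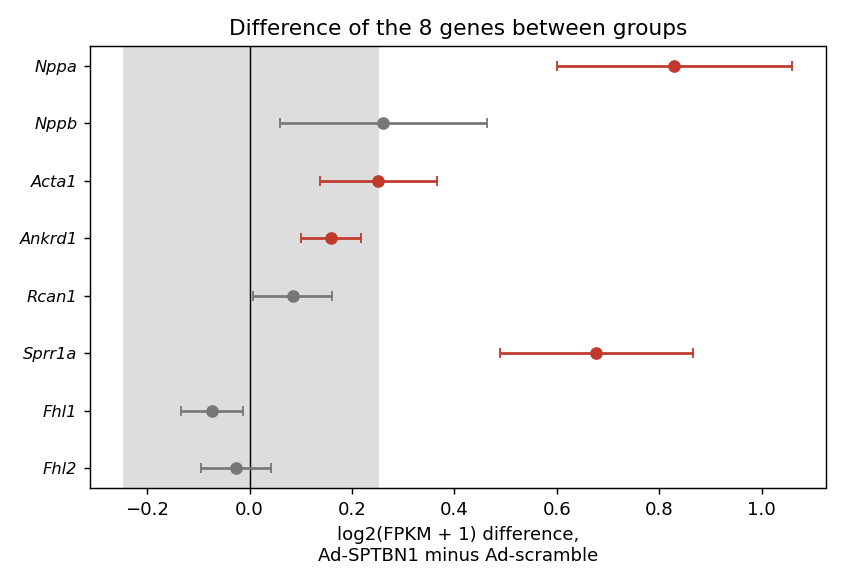
Log2(FPKM + 1) difference of the 8 genes with its 95% limma interval, Ad-SPTBN1 minus Ad-scramble. Red marks genes called higher and grey genes not called; the grey band runs from -0.25 to 0.25, the 5th to 95th percentiles of all tested genes. The intervals of Nppa and Sprr1a lie wholly right of the band.

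On the FPKM scale, which is per length, the order of the 8 genes was the same in both groups: Ankrd1, Fhl2, Fhl1, Sprr1a, Rcan1, Nppb, Acta1 and Nppa from high to low. In neither group did the ranges of any neighbours in that order overlap. The closest were Nppb and Acta1: in the libraries labelled Ad-SPTBN1 they spanned 23.0 to 27.6 and 18.0 to 20.0 FPKM, against 18.5 to 22.6 and 15.1 to 16.4 FPKM in the libraries labelled Ad-scramble.

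Markers of heart muscle moved with the 4 called genes. Of 15 listed cardiomyocyte markers 10 were tested, and 7 were higher and 0 lower, beside 5.54% higher and 5.50% lower of all tested genes. The median log2 difference of the tested markers was 0.43. All 10 were higher at an unadjusted limma p under 0.05, and voom called 8 higher and 0 lower. The summed level of the 15 was 106 to 113 FPKM in the libraries labelled Ad-SPTBN1 and 63.9 to 66.1 FPKM in those labelled Ad-scramble. None of the 15 was at 0 in all libraries. Myh6, the adult atrial and ventricular myosin heavy chain of the mouse, averaged 11.7 ± 0.834 FPKM in the libraries labelled Ad-SPTBN1 and 5.67 ± 0.165 FPKM in those labelled Ad-scramble (log2 difference 0.93, limma adjusted p = 0.000421). Its reads may be shared in part with its close relative Myh7. Tnnt2 differed by 0.37 ± 0.04 (limma adjusted p = 0.00198). Myh7, the foetal form of the myosin heavy chain in the mouse ventricle, averaged only 0.597 FPKM in the libraries labelled Ad-SPTBN1 and 0.280 FPKM in those labelled Ad-scramble and was not tested.

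Relative to Actc1, none of the 8 genes was higher in the libraries labelled Ad-SPTBN1. Of the 8 ratios to Actc1, 7 were lower without overlap and 1, that of Nppa, overlapped. Actc1 itself stood at 217% of its level in the libraries labelled Ad-scramble, so a gene that did not change falls per Actc1. Fhl2, at 98.1% of that level, is among the 7. Ratios to Tnnt2, itself at 132%, and to the summed markers carry the same limit. The share of all tested genes that differ without overlap in such ratios was not computed. Nppa per Actc1 was 0.295, 0.218 and 0.299 in the libraries labelled Ad-SPTBN1, against 0.269, 0.318 and 0.335 in those labelled Ad-scramble (exact two-sided permutation p = 0.4). Relative to Tnnt2 the picture changed: Nppa and Sprr1a were higher without overlap, 4 genes were lower and 2, Nppb and Acta1, overlapped. Nppa per Tnnt2 was 0.952, 0.766 and 0.978 in the libraries labelled Ad-SPTBN1, against 0.556, 0.631 and 0.683 in those labelled Ad-scramble (exact two-sided permutation p = 0.1, adjusted 0.13 over the 26 ratios). Relative to the summed level of the 15 markers, Nppa and Sprr1a overlapped between the groups and the other 6 genes were lower. Actc1 is the largest term of that sum, so these ratios partly repeat those to Actc1. Nppa per summed marker level averaged 0.114 ± 0.0174 in the libraries labelled Ad-SPTBN1 and 0.10 ± 0.00814 in those labelled Ad-scramble (exact two-sided permutation p = 0.3). Sprr1a per summed marker level averaged 0.560 ± 0.0186 in the libraries labelled Ad-SPTBN1 and 0.583 ± 0.0543 in those labelled Ad-scramble (exact two-sided permutation p = 0.5). A ratio shows unequal change of its terms, and the part of cell composition in these values was not tested.

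**Figure D4:**
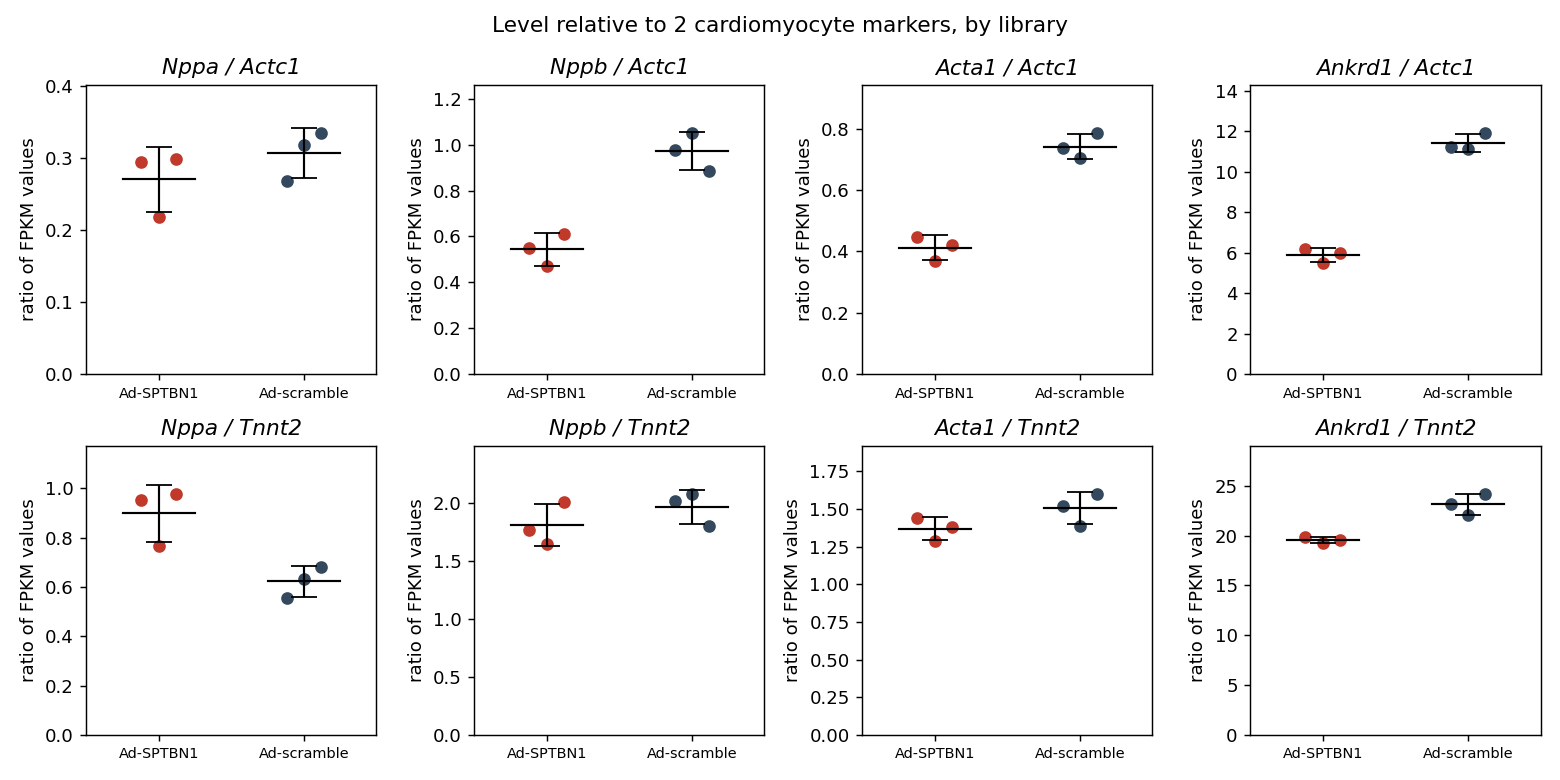
Ratio of the FPKM of Nppa, Nppb, Acta1 and Ankrd1 to that of Actc1 (top) and Tnnt2 (bottom), on linear axes that start at 0, in the 3 libraries labelled Ad-SPTBN1 (left, red) and the 3 labelled Ad-scramble (right, blue). Points are libraries and bars the mean ± SD. The groups overlap for Nppa per Actc1, while the other 3 genes lie lower per Actc1 in the libraries labelled Ad-SPTBN1; Nppa per Tnnt2 lies higher.

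Markers of other cells moved as well, and their counts stand beside 5.54% higher and 5.50% lower of all tested genes. Of 13 fibroblast markers, all tested, 1 was higher and 8 lower (median log2 difference -0.16), or 3 to 6 called without any 1 library, although their summed level, which Col1a1 dominates, was 4531 to 4755 FPKM in the libraries labelled Ad-SPTBN1 and 4302 to 4633 FPKM in those labelled Ad-scramble. Dpt, an extracellular matrix gene, averaged 62.15 ± 2.42 FPKM in the libraries labelled Ad-SPTBN1 and 80.6 ± 5.15 FPKM in those labelled Ad-scramble (limma adjusted p = 0.00665). Mfap5 and Gsn were lower, with log2 differences of -0.25 and -0.16 (limma adjusted p = 0.010 and 0.00949), and Ddr2 was higher by 0.14 (limma adjusted p = 0.0276), a call lost without any 1 library (adjusted p = 0.0621 to 0.0976). Of 12 smooth muscle and pericyte markers, all tested, 1 was higher and 5 lower (median -0.15), and their sum was 1894 to 1923 FPKM in the libraries labelled Ad-SPTBN1 and 1945 to 1968 FPKM in those labelled Ad-scramble. Cspg4, a pericyte proteoglycan, was higher by 0.40, while Mylk and Notch3 were lower, with log2 differences of -0.33 and -0.29 (limma adjusted p = 0.00184, 0.00401 and 0.00811). Of 10 endothelial markers, all tested, limma called 0, with 1 in each direction at an unadjusted p under 0.05 and 1 called higher by voom, with sums of 141 to 146 FPKM in the libraries labelled Ad-SPTBN1 and 133 to 141 FPKM in those labelled Ad-scramble. Of 9 macrophage markers 3 were tested and 0 were called by limma, by voom or at an unadjusted p under 0.05, with sums of 12.3 to 13.1 FPKM in the libraries labelled Ad-SPTBN1 and 12.8 to 13.1 FPKM in those labelled Ad-scramble. The most abundant of these, Eng of endothelium and Lyz2 of macrophages, had limma adjusted p-values of 0.106 and 0.716. None of these markers was at 0 in all libraries, and their part in the values of the 8 genes was not tested.

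Acta1 and Sprr1a are also markers outside the heart, of skeletal muscle and of skin. Calls in both lists stand beside 5.54% higher and 5.50% lower of all tested genes. Of 12 skeletal muscle markers 4 were tested and 1 was called, Acta1 itself. Their sum was 23.3 to 24.7 FPKM in the libraries labelled Ad-SPTBN1 and 21.4 to 22.4 FPKM in those labelled Ad-scramble, most of it Acta1. Of 11 keratinocyte and epithelial markers 6 were tested, and 2 were higher and 1 lower, with sums of 104 to 106 FPKM in the libraries labelled Ad-SPTBN1 and 83.2 to 86.8 FPKM in those labelled Ad-scramble. Those higher were the simple epithelial keratins Krt18 (53.0 ± 1.61 FPKM in the libraries labelled Ad-SPTBN1 and 40.25 ± 1.58 FPKM in those labelled Ad-scramble) and Krt8 (21.9 ± 0.506 FPKM in the libraries labelled Ad-SPTBN1 and 17.1 ± 0.958 FPKM in those labelled Ad-scramble). The lower gene was Krt10, a keratin of the outer skin, at 2.00 ± 0.285 FPKM in the libraries labelled Ad-SPTBN1 and 2.90 ± 0.273 FPKM in those labelled Ad-scramble (log2 difference -0.38, limma adjusted p = 0.0362). That call ended when any 1 library other than Ad-SPTBN1 replicate 2 was left out (adjusted p = 0.0555 to 0.107). Lor and Ivl, proteins of the skin envelope, were not called (limma adjusted p = 0.424 and 0.339): Lor averaged 6.11 ± 0.202 FPKM in the libraries labelled Ad-SPTBN1 and 5.54 ± 0.833 FPKM in those labelled Ad-scramble, and Ivl 1.59 ± 0.162 FPKM in the libraries labelled Ad-SPTBN1 and 1.25 ± 0.419 FPKM in those labelled Ad-scramble. The skin keratins Krt5, Krt14 and Krt1 averaged under 1 FPKM in the libraries of both labels.

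Beyond the 8 genes, a wider list of hypertrophy genes was called in both directions. Of 44 other listed genes of the foetal programme and of hypertrophic signalling, 40 were tested, 5 were higher and 6 lower, with a median log2 difference of -0.01. That is 11 of 40 beside the 11.0% called among all tested genes. The list holds genes of unlike roles, among them Myh6, the adult myosin form, so these signs do not give a direction of the programme. Voom called 7 higher and 8 lower, and an unadjusted limma p under 0.05 was reached by 10 higher and 9 lower. The 11 calls became 5 to 7 without any 1 library other than Ad-scramble replicate 2. Besides Myh6, Timp1, an inhibitor of matrix proteases, was higher, at 686 ± 29.6 FPKM in the libraries labelled Ad-SPTBN1 and 552 ± 26.4 FPKM in those labelled Ad-scramble (log2 difference 0.31, limma adjusted p = 0.00725). Angiotensinogen, Agt, the source of the hypertrophic hormone angiotensin, was lower, at 2.13 ± 0.0429 FPKM in the libraries labelled Ad-SPTBN1 and 3.85 ± 0.480 FPKM in those labelled Ad-scramble (log2 difference -0.63, limma adjusted p = 0.00443). Edn1, which encodes the hypertrophic peptide endothelin-1, was lower too, at 54.5 ± 0.876 FPKM in the libraries labelled Ad-SPTBN1 and 60.8 ± 1.25 FPKM in those labelled Ad-scramble (limma adjusted p = 0.0168). Spp1, which encodes osteopontin, was lower, with a log2 difference of -0.22 (limma adjusted p = 0.0127), a call that ended without Ad-scramble replicate 1 (adjusted p = 0.0515). The Edn1 call was lost without Ad-SPTBN1 replicate 2 or 3 or Ad-scramble replicate 1 (adjusted p = 0.0523 to 0.0633).

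Of 21 cardiac and muscle transcription factors 19 were tested, 1 was higher and 4 lower, with a median log2 difference of -0.05. Over all tested genes the shares were 5.54% higher and 5.50% lower. At an unadjusted limma p under 0.05, 1 was higher and 6 lower, and voom called 1 higher and 5 lower. The 5 calls became 1 without Ad-SPTBN1 replicate 1 or 3, 0 without Ad-scramble replicate 1 and 3 without Ad-scramble replicate 2. Nkx2-5, the cardiac NK2 factor, averaged 2.65 ± 0.295 FPKM in the libraries labelled Ad-SPTBN1 and 1.66 ± 0.227 FPKM in those labelled Ad-scramble (log2 difference 0.46, limma adjusted p = 0.0223). That call was lost without Ad-SPTBN1 replicate 1 or 3 or Ad-scramble replicate 1 or 2 (adjusted p = 0.0558 to 0.0731). Jun, a subunit of AP-1, was lower, at 499 ± 11.3 FPKM in the libraries labelled Ad-SPTBN1 and 569.7 ± 17.7 FPKM in those labelled Ad-scramble (limma adjusted p = 0.0123). Leaving out Ad-scramble replicate 1 ended the Jun call (adjusted p = 0.0509). Tbx20 and Egr1 were lower, with log2 differences of -0.20 and -0.13 (limma adjusted p = 0.0152 and 0.0222), and each lost its call without Ad-SPTBN1 replicate 1 or 3 or Ad-scramble replicate 1 (adjusted p = 0.055 to 0.0811), and Egr1 also without Ad-scramble replicate 2.

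Ankrd1 is a target of YAP, a coactivator that acts through TEAD factors on M-CAT letters. Of 24 other listed YAP and TEAD targets, all tested, 4 were higher and 1 lower, or 5 of 24 beside the 11.0% called among all tested genes, with a median log2 difference of -0.02. Voom called 5 higher and 3 lower, and an unadjusted limma p under 0.05 was reached by 5 higher and 5 lower. Without any 1 library only 1 or 2 were called. Gadd45a, a stress-response gene, averaged 50.8 ± 0.368 FPKM in the libraries labelled Ad-SPTBN1 and 45.2 ± 0.535 FPKM in those labelled Ad-scramble (log2 difference 0.165, limma adjusted p = 0.00922). Dock5 and Amotl1 were higher by 0.22 and 0.15 (limma adjusted p = 0.0219 and 0.0287). The Dock5 call was lost without replicate 1 or 2 of either group and the Amotl1 call without any 1 library (adjusted p = 0.0594 to 0.0957). Cyr61, a matrix protein that is among the best known of these targets, was lower, at 1604 ± 22.4 FPKM in the libraries labelled Ad-SPTBN1 and 1727 ± 33.6 FPKM in those labelled Ad-scramble (log2 difference -0.11, limma adjusted p = 0.0386), a call lost without any 1 library (adjusted p = 0.0609 to 0.108).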

How the data were processed

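The authors deposited 1 table of FPKM values for 31115 genes in 6 libraries; GRCm38 and mm10 are named per the submitters' processing notes. RNA was extracted with TRIzol and libraries made with a NEBNext Ultra kit, per the labels' protocols. The aligner, counter, annotation and strand setting remain not given in the sources used here. Limma 3.58.1 (R 4.3.3), with its variance prior allowed a trend, was run on log2(FPKM + 1) for the 12608 genes that averaged 1 FPKM or more, and p-values were adjusted by Benjamini-Hochberg. A difference on this scale understates the change of low genes. Single ratios were tested by exact permutation in scipy 1.17.1. Reads were recovered with exon lengths of GENCODE M21, in which 31065 gene IDs were found: 95.6% to 95.7% of values above 0 were whole within 0.1 read. Voom on these reads called 2145 genes. Promoter sequences, found for all 8 genes, are RefSeq's (GRCm38.p6).

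The 8 genes and all gene lists were chosen with earlier results of these data known. Other genes were named by rule: of each list, up to 3 called in each direction by smallest p, and for each called gene of the 8 that differed by at least 0.5 the 3 nearest in pattern. A gene under this rule is not reported here. Ankrd2, Ankrd23, Csrp3, Myh7, Clcn6, Sprr2g, Sprr2k, Krt5, Krt14, Krt1, Lor and Ivl were chosen after their values were seen. Alternatives were other pseudocounts, filters, scalings, variance settings and weights, voom, a replicate block and the removal of each library.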

Additional observations from a re-analysis of the deposited data

How the results depend on the processing

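The calls of Nppa, Ankrd1 and Sprr1a held under all 16 alternatives. Their log2 differences ranged from 0.59 to 0.93, from 0.15 to 0.18 and from 0.59 to 0.74. Acta1 ranged from 0.21 to 0.29 and lost its call in 5. Nppb ranged from 0.18 to 0.32 and was called in 1. Rcan1, Fhl1 and Fhl2 were never called and kept their signs. Between 3 and 5 of the 8 genes were called. The total of 1391 genes called was 665 with no filter, 2145 with voom on recovered reads and 620 to 867 without any 1 library. With the replicate block it was 730, and no call among the 8 genes changed under the block. Same-numbered libraries did not deviate together (correlations of 0.01, -0.03 and 0.01). These correlations show no sign of pairing by number, but cannot tell how the cultures were made. Called genes ranged from 2 to 6 in the natriuretic peptide list (3 in the report), 0 to 2 for calcineurin (1), 2 to 5 for ankyrin and LIM (3), 5 to 15 for the foetal programme (11), 0 to 6 for transcription factors (5), 2 to 7 for Sprr and gp130 (5), 1 to 8 for YAP (5), 5 to 8 for cardiomyocyte (7), 3 to 11 for fibroblast (9) and 3 to 7 for smooth muscle markers (6). Among the named genes outside the 8, and apart from single libraries left out, calls ended with no filter (Npr2, Csrp1, Nkx2-5, Jun, Egr1, Il6, Dock5, Cyr61 and 2510039O18Rik), with no trend in the prior variance (Csrp1, Edn1, Egr1, Il6st, Amotl1, Cyr61, Ddr2 and 2510039O18Rik), with quantile normalization (Csrp1, Jun, Egr1 and Cyr61), with the replicate block (Npr2, Rcan2, Csrp1, Tbx20, Egr1, Il6st, Dock5, Amotl1, Cyr61 and Ddr2) and with voom (Rps19-ps7). Krt10 is not in these groups, but it lost its call in 7 alternatives, not all of them removals of 1 library (adjusted p up to 0.12). The cause was not tested. Among genes not called, Actb turned to -0.005 with equal medians, -0.01 with quantile normalization, -0.003 with array weights and -0.01 to -0.023 without 1 library, Acta2 to 0.014 with quantile normalization, Nppc to -0.005 and to 0.00 and the macrophage gene Lyz2 to 0.042 in a range of -0.12 to 0.042 without 1 library. Rescaling moved the median of all genes by 0.01 at most. With 3 libraries a group, the exact test cannot go below 0.1, and Nppa, at 95 to 218 reads, carries the largest counting error of the 8.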
